A study of Junco hyemalis with 13 samples.

Results

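LHX1 (element XP_004177057.1) and LHX5 (element XP_004176635.2) are 2 of the 15363 annotated elements counted in hypothalamic RNA of dark-eyed juncos (Junco hyemalis). They were picked by symbol, and their symbols were known because both stood near the top of the study's table of differences between residents and migrants. That p sets the population difference against the spread among birds of a population, so both the difference and the spread are given as descriptions without a test. How LHX1, LHX5 and other measures varied together among birds of the same population was tested. The populations were 7 residents (J. h. carolinensis, blue-billed, breeding where they were caught) and 6 migrants (J. h. hyemalis, pink-billed, wintering there and breeding farther north). All birds were free-living males netted in March 2017 at Mountain Lake, Virginia, with no treatment, and their ages were not given in the sources used here. The tissue was a series of punches taken above the optic chiasm, from the septomesencephalic tract back to the end of the infundibular nuclei, and each bird gave 1 library. In such a bulk punch, fewer cells of a type and less RNA per cell cannot be told apart.

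LHX1 and LHX5 are closely related transcription factors of the LIM-homeodomain family, in which a homeodomain binds DNA and a pair of LIM domains binds cofactors such as LDB proteins. In the mouse hypothalamus LHX1 is a marker of the suprachiasmatic nucleus, the seat of the circadian clock, where it is needed for clock neurons to stay coupled, and it also marks mammillary neurons. In the mouse LHX5 is known from the developing forebrain and from the mammillary hypothalamus. Both genes are thus used as markers of position within the hypothalamus. Which nuclei each punch held was not analysed here.

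The libraries held 4308064 to 5469786 counted read pairs in residents and 4319503 to 5826833 in migrants. Of all elements, 11454 had a count and 9938 had enough counts to be tested, LHX1 and LHX5 among them. Resident 4 and migrant 1 scored far from the other 11 birds on the first principal component (24.3% of the variance), so results that rest on them are also given without them. Levels are CPM, the counts of an element relative to the library total, scaled between libraries by the trimmed mean of M-values.

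LHX1 was detected in every bird. Residents 1 to 7 had 25.3, 31.7, 14.05, 25.1, 22.6, 30.5 and 22.2 CPM, and migrants 1 to 6 had 22.1, 22.2, 15.9, 14.9, 12.6 and 12.99 CPM. Residents 2 and 6 were highest and migrants 5 and 6 lowest, while resident 3 lay among the migrants and migrants 1 and 2 came just under the lower residents, so that the ranges overlapped. The highest migrant, at 22.16 CPM, was passed by 6 of 7 residents, the closest of them at 22.21 CPM. LHX1 averaged 24.5 ± 5.87 CPM in residents (SD, n = 7) and 16.8 ± 4.32 CPM in migrants (SD, n = 6). The log2 fold change, resident minus migrant, was 0.54 (standard error 0.20), a ratio of 1.46.

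LHX5 was also detected in every bird. Residents 1 to 7 had 24.9, 16.6, 12.7, 30.04, 19.8, 25.8 and 19.5 CPM, and migrants 1 to 6 had 13.6, 18.7, 14.4, 12.4, 15.2 and 11.1 CPM. Resident 4 was highest and migrant 6 lowest, migrant 2 was the highest migrant, and 5 of 7 residents lay above it, with residents 2 and 3 inside the migrant range. LHX5 averaged 21.4 ± 5.93 CPM in residents (SD, n = 7) and 14.2 ± 2.60 CPM in migrants (SD, n = 6). The log2 fold change was 0.58 (standard error 0.19), a ratio of 1.49. Without resident 4 and migrant 1, the birds that scored far from the others, it was 0.47 for LHX5 and 0.62 for LHX1.

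**Figure D1:**
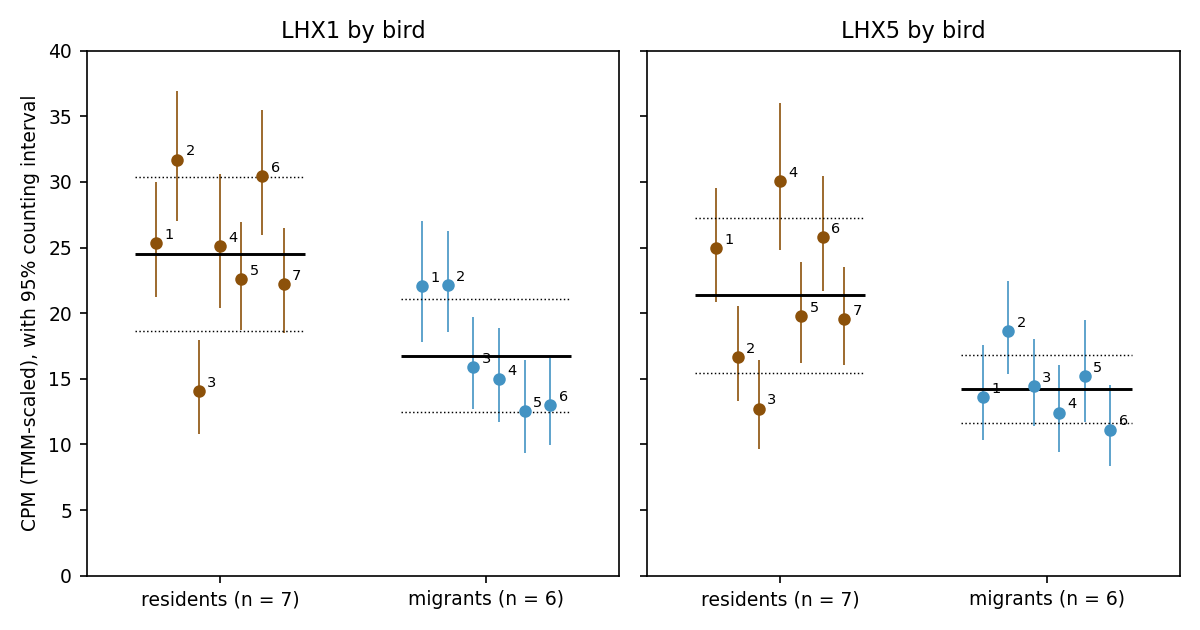
LHX1 (left panel) and LHX5 (right panel) in CPM, residents at the left of each panel and migrants at the right, 1 point per bird with its replicate number and the 95% interval of counting error. Solid lines are population means and dotted lines 1 SD either side; resident 3 is the lowest resident in both panels, at 14.05 CPM for LHX1 and 12.7 CPM for LHX5.

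Among the 9938 elements, LHX5 ranked 57 and LHX1 ranked 92 by the p of this comparison in edgeR's quasi-likelihood fit, which restates how they were chosen. A larger log2 fold change was found for 1.73% of elements than for LHX5 and for 2.02% than for LHX1, and the median over all elements was 0.002. None of the 9938 elements passed an adjusted p of 0.05 in that fit (0%), and 442 had an unadjusted p under 0.05 (4.45%, of which 2.3% higher and 2.14% lower in residents). DESeq2 called 3 elements, with 502 at an unadjusted p under 0.05, and limma-voom called 0, with 446. The CPM of residents and migrants did not overlap at all for 0.131% of elements, and LHX1 and LHX5 were not among them.

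The spread among birds of a population is given beside counting error. Same-population libraries exceeded that error as a mean over elements, which abundant elements can carry. Among residents the coefficient of variation of LHX1 was 23.96%, against 9.04% from counting alone, on 64 to 164 counts per bird. In migrants it was 25.7%, against 11.1% from counting alone, on 52 to 133 counts. LHX5 varied by 27.8% in residents (9.77% from counting) and by 18.3% in migrants (12.0% from counting). The biological coefficient of variation of the fit, which entered the p that chose the genes, was 0.235 for LHX1 and 0.231 for LHX5, with 58.6% and 56.7% of elements below them.

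Whether the related genes vary together from bird to bird was tested within populations. Pearson's r of their log2 CPM was 0.60 in residents (exact permutation p = 0.154, n = 7; Spearman's rho 0.36, p = 0.444). Migrants gave an r of 0.54 (exact permutation p = 0.279, n = 6; rho 0.37, p = 0.497). Over all 13 birds, as deviations from the population mean, r was 0.57 (permutation p = 0.0541) and rho 0.54 (p = 0.0642). None of the 3 relations passed, with adjusted p-values of 0.162 to 0.279 for r and 0.193 to 0.497 for rho.

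Single birds decided the size of these correlations. Leaving out the 2 birds farthest from the median of LHX1 gave 0.17 over all birds (without resident 3 and migrant 2), 0.64 in residents (without residents 2 and 3) and 0.10 in migrants (without migrants 1 and 2). Resident 3 was the lowest resident for both genes, and without it alone r was -0.06 among residents and 0.26 over all birds. Resident 2 had much LHX1 and little LHX5, and without it r was 0.91 among residents (exact permutation p = 0.0181, n = 6) and 0.75 over all birds (permutation p = 0.0101). Without resident 4 and migrant 1, r over the other 11 birds was 0.70 (permutation p = 0.0315). These p-values from fewer birds are not adjusted.

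**Figure D2:**
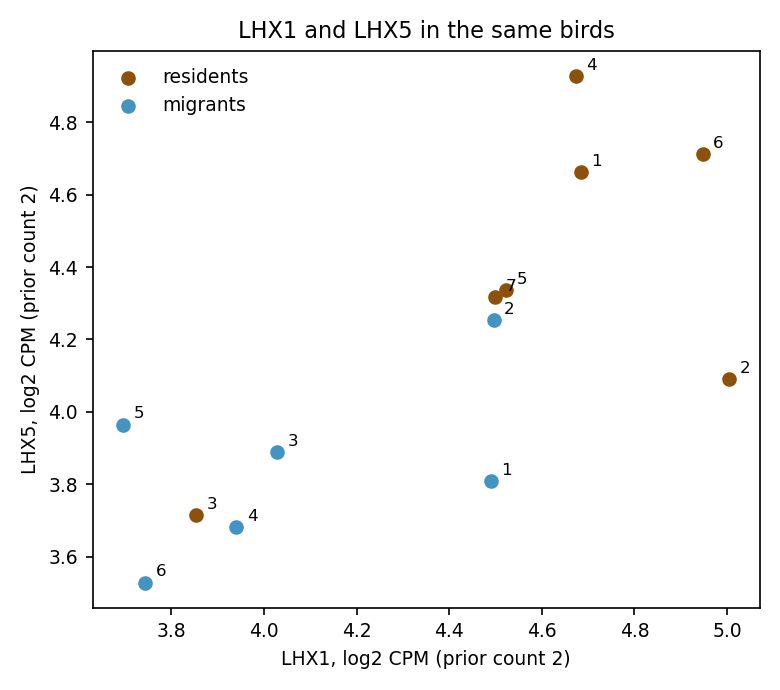
LHX5 against LHX1 in the same bird, both as log2 CPM with a prior count of 2, residents in brown and migrants in blue, with replicate numbers. Resident 3 lies with the migrants at the low end of both axes, and resident 2 lies below the other residents that are high on LHX1.

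The balance between the genes overlapped between the populations. The ratio of LHX1 to LHX5 counts, which compares birds and not the levels of the genes because transcript lengths were not used, had a median of 1.14 in residents (0.836 to 1.91) and 1.18 in migrants (0.825 to 1.62). The SD of its log2 was 0.361 among residents, where counting alone gives 0.199, and 0.311 among migrants, where it gives 0.243. Resident 2 had the highest ratio, at 1.91, followed by migrant 1 at 1.62.

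The punch was checked against genes listed for the region. Of 9 other transcription factors put on that list, all were detected in all 13 birds. Whether each is particular to the forebrain or hypothalamus was not checked. The summed level of the 9 was 347 to 509 CPM in residents and 385 to 534 CPM in migrants, so that the populations overlapped. The largest part of that sum was DBX2, with 237 ± 40.1 CPM in residents (SD, n = 7) and 259 ± 63.9 CPM in migrants (SD, n = 6). FOXD1, FOXP4, FOXL2, SHOX2 and TBX18 averaged only 1.82 to 5.32 CPM, so the sum says little about them. None of the 9 passed the comparison of populations and none had an unadjusted p under 0.05. Their log2 fold changes had a median of 0.004 and a range of -0.25 to 0.23, beside 0.54 and 0.58 for the chosen LHX1 and LHX5. The standard errors of the 9 reached 0.42 (FOXP4), so the range leaves room for differences of that size. LMO1, a LIM-only protein that binds the same LDB cofactors, had 73.8 ± 30.9 CPM in residents (SD, n = 7) and 73.5 ± 8.23 CPM in migrants (SD, n = 6). POU3F4, a POU-domain factor of the developing hypothalamus, had 57.2 ± 8.81 CPM in residents and 56.1 ± 7.90 CPM in migrants. ZIC1, a zinc-finger factor of the septum and preoptic region in the mouse, had 37.5 ± 9.11 CPM in residents and 33.1 ± 15.3 CPM in migrants.

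Hypothalamic peptide and receptor genes were detected as well. Of 15 such genes, 13 had not been chosen for a small p in this comparison. None of the 13 passed or had an unadjusted p under 0.05, which was partly set in advance by leaving out GNRH1 and NPY. Their log2 fold changes were above 0 for 9 and below 0 for 4, with a median of 0.08. NPVF, the precursor of gonadotropin-inhibitory hormone, had 507 ± 212 CPM in residents (SD, n = 7) and 357 ± 87.6 CPM in migrants (SD, n = 6), with a log2 fold change of 0.50 (standard error 0.25). For CRH, the releasing hormone of the stress axis, it was 0.46 (standard error 0.31). GNRH1, the releasing hormone of the reproductive axis and itself in the table for its small p, had 18.1 ± 7.83 CPM in residents and 7.59 ± 1.13 CPM in migrants. NPY, a feeding peptide that is also in the table for its small p, went the other way, with 492 ± 124 CPM in residents and 714 ± 270.2 CPM in migrants.

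**Figure D3:**
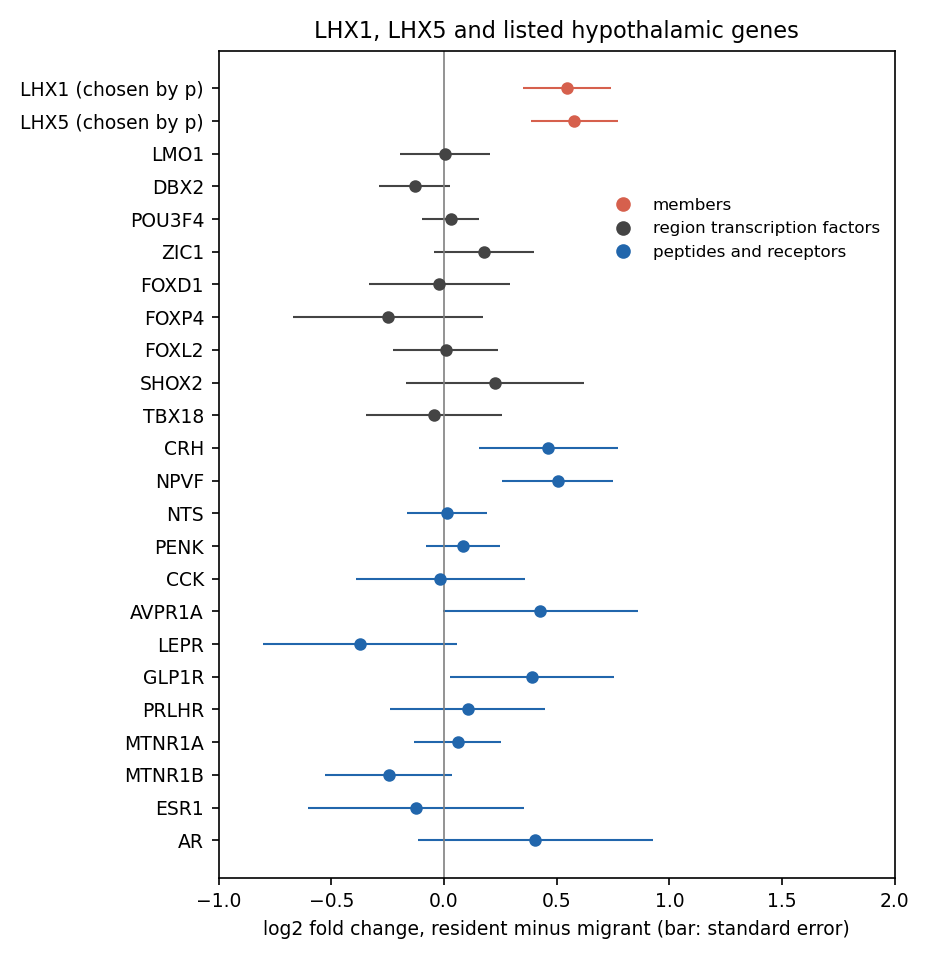
Log2 fold change, resident minus migrant, with its standard error, for LHX1 and LHX5 (red), 9 transcription factors listed for the region (grey) and 13 hypothalamic peptides and receptors (blue). The grey points lie between -0.25 and 0.23, with standard errors up to 0.42. LHX1 at 0.54 and LHX5 at 0.58 were chosen by the p of this same comparison.

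Genes of other places were mostly at or near 0. Of 9 genes listed for other brain regions or tissues, 7 had at most 4 counts in any bird: HOXB3 of the hindbrain, POU4F2, NEUROG1, NKX2-5, HAND2, GCM2 and TYR. Some of these were listed for tissues outside the brain, so their low counts do not place the punch within it. EN2, a marker of the midbrain and hindbrain boundary, averaged 6.08 counts, with 1.69 ± 0.663 CPM in residents (SD, n = 7) and 0.705 ± 0.726 CPM in migrants (SD, n = 6). FOXP4 and SHOX2 from the list for the region were little higher, at 1.94 and 2.17 CPM in residents and 2.29 and 1.82 CPM in migrants. Such low levels do not separate the 2 lists. RPE65, known from the pigment epithelium of the eye, went against the list with 377 ± 89.4 CPM in residents and 502 ± 154 CPM in migrants. EN2 and RPE65 had unadjusted p-values of 0.0425 and 0.0370 in edgeR's quasi-likelihood test (adjusted p = 0.996 for both).

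Markers of other cells gave these values beside the difference in LHX1 and LHX5. The 6 neuronal genes summed to 3572 to 6979 CPM in residents and 3166 to 6174 CPM in migrants, and none of them had an unadjusted p under 0.05. Both alpha globins, markers of blood, were lower in residents on average, with summed levels of 3496 to 10384 CPM in residents and 4782 to 12701 CPM in migrants. Neither globin passed (adjusted p = 0.996 from edgeR for both), and their log2 fold changes were -0.59 for HBAA and -0.53 for HBAD. Once HBAA was added to the model, LHX1 had a log2 fold change of 0.47 and LHX5 one of 0.65. The ciliary genes of the ependyma, the cells that line the third ventricle, summed to 52.8 to 91.4 CPM in residents and 60.8 to 98.6 CPM in migrants. These ciliary genes went opposite ways. RSPH4A, a radial spoke protein in the table for its small p, differed by 0.89 on the log2 scale (standard error 0.26). Those not chosen by p had negative estimates, -0.42 (standard error 0.17) for DNALI1, of the ciliary motor, and -0.11 (standard error 0.18) for RSPH1. OMG, the only oligodendrocyte gene listed and also in the table for its small p, moved the same way as LHX1 and LHX5. It had 152 to 241 CPM in residents and 122 to 151 CPM in migrants. These ranges did not overlap, as for 0.131% of all elements, and the choice of OMG by p favours such a gap. The part of these cells in the values of LHX1 and LHX5 was not tested. Over all 10 lists, 0 of 41 tested genes not chosen by p passed, and 5 had an unadjusted p under 0.05, of which 1 was higher (EN2) and 4 were lower in residents (RPE65, HBAA, HBAD and DNALI1), beside 4.45% of all elements. The 4 listed genes that were chosen by p and left out of this count were higher for GNRH1, OMG and RSPH4A and lower for NPY. Leaving them out took small p-values from the lists in advance, while the 4.45% keeps such elements. The 0 of 41 is thus partly set by that choice, and the shares are not like for like.

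The listed genes were then set against LHX1 and LHX5 from bird to bird. With 45 genes, the total count and the first principal component there were 47 measures and 94 relations, each as deviations from the population mean over 13 birds. None of the 94 passed (smallest adjusted p = 0.619 for Pearson's r and 0.807 for Spearman's rho, permutation tests), and 6 had an unadjusted p under 0.05. These were 4 of 47 with LHX1 and 2 of 47 with LHX5, near the shares over all elements in edgeR's slope tests given further on (7.69% and 4.77%), so the values that follow are descriptions of single genes.

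The highest r with LHX1 came from neuronal and peptide genes and from FOXL2. SYN2, a synapsin of synaptic vesicles, gave an r of 0.66 (permutation p = 0.0270, rho 0.62, p = 0.0277). Proenkephalin, PENK, gave an r of 0.64 (permutation p = 0.0261, rho 0.65, p = 0.0322). For each gene, r was also taken without the 2 birds farthest from the median of that gene, which can be different birds each time. It was then 0.39 for SYN2 and 0.80 for PENK. SNCB, beta-synuclein, gave 0.62 (permutation p = 0.0330, rho 0.49, p = 0.108) and GNRH1 0.58 (permutation p = 0.0404, rho 0.42, p = 0.115). These were 0.29 without the 2 birds farthest on SNCB and 0.33 without the 2 farthest on GNRH1. FOXL2, a forkhead factor among the listed transcription factors, gave 0.60 (permutation p = 0.0528, rho 0.40, p = 0.158), and -0.01 without the 2 birds farthest on FOXL2. FOXD1, another forkhead factor, gave 0.46 (permutation p = 0.128, rho 0.60, p = 0.0522), and 0.13 without the 2 birds farthest on FOXD1. All 6 neuronal genes had a positive r with LHX1 (median 0.45), against 2 of 6 with LHX5 (median -0.09), a contrast that was not tested. Without the 2 birds farthest on each neuronal gene, r with LHX1 ran from 0.07 (UCHL1) to 0.40 (CALB2). LHX1 also went with the total count of the library (r = 0.56, permutation p = 0.0597, rho 0.49, p = 0.102), and its part in the relations above was not tested.

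The r farthest from 0 with LHX5 were negative. NTS, the precursor of neurotensin, gave an r of -0.66 (permutation p = 0.0288, rho -0.67, p = 0.0267), and it was -0.62 without the 2 birds farthest on NTS. LUM, lumican of connective tissue, gave -0.63 (permutation p = 0.0381, rho -0.60, p = 0.0504), and -0.55 without the 2 birds farthest on LUM. Among the listed transcription factors, LHX5 had an r of 0.52 with LMO1 (permutation p = 0.146, rho 0.31, p = 0.341), 0.51 with POU3F4 (permutation p = 0.0986, rho 0.56, p = 0.0635) and -0.52 with TBX18 (permutation p = 0.133, rho -0.30, p = 0.359). Without resident 4 and migrant 1, r was 0.25 with LMO1, 0.46 with POU3F4 and -0.22 with TBX18, and without resident 4 alone it was -0.24 with TBX18. Resident 4 was the highest resident for LHX5 and LMO1. With LHX5 the total count had an r of 0.13 (permutation p = 0.681) and HBAA one of 0.20 (permutation p = 0.552).

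**Figure D4:**
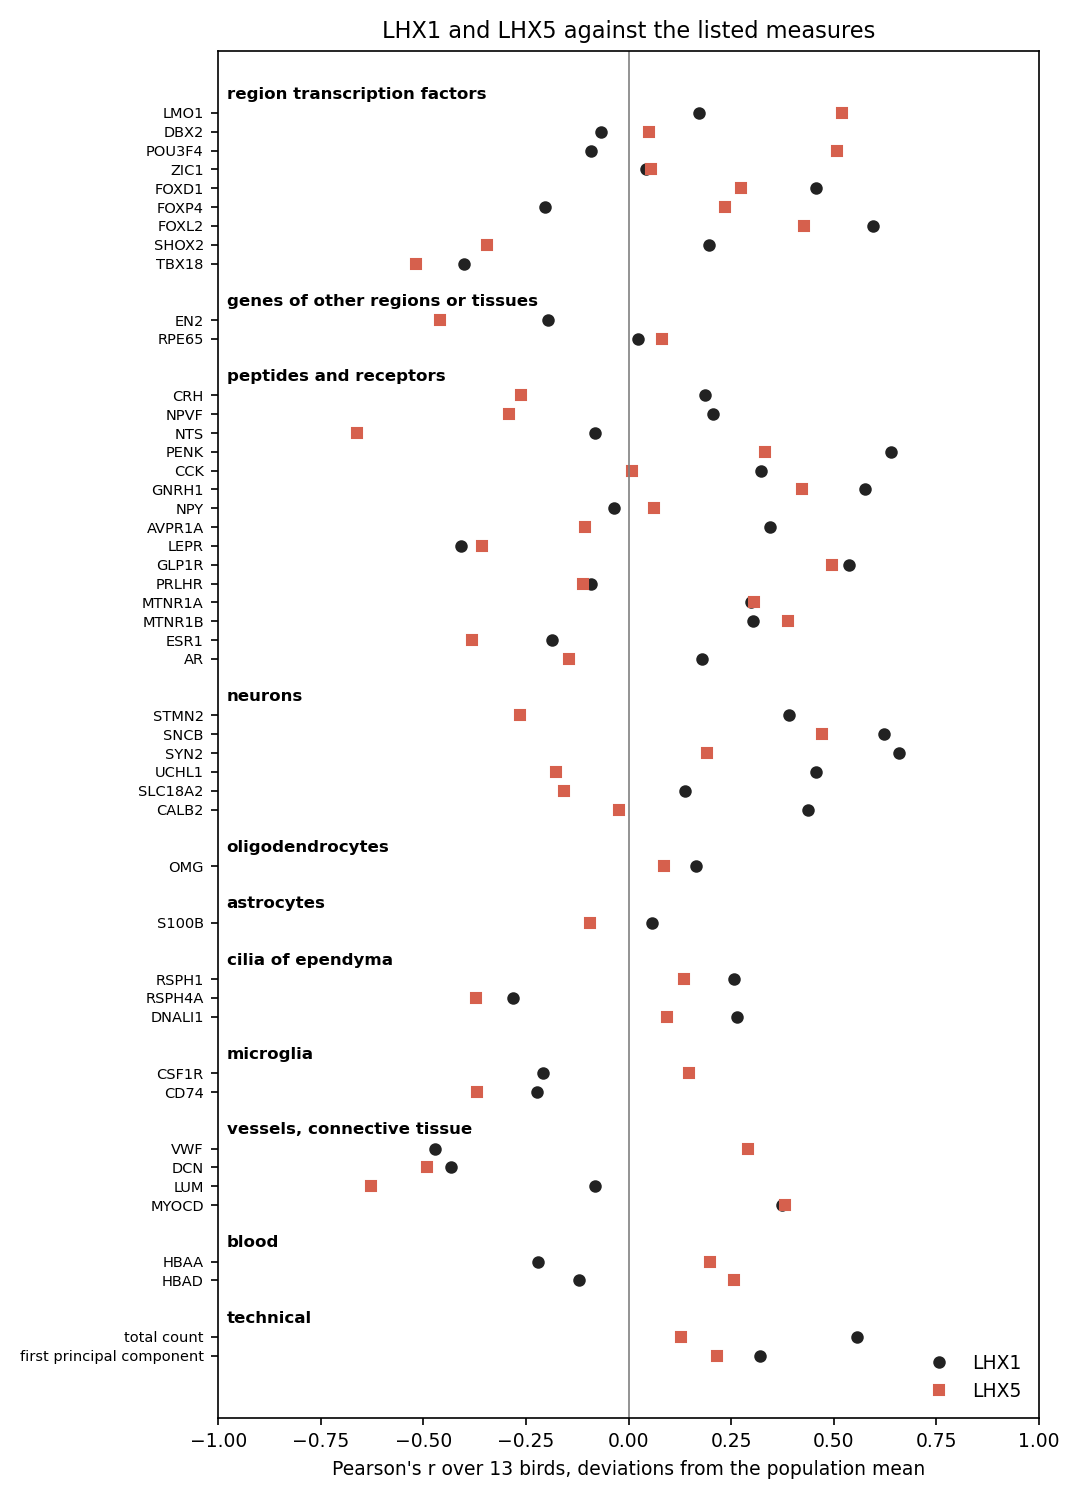
Pearson's r of LHX1 (black circles) and LHX5 (red squares) with 45 listed genes and 2 technical measures, over 13 birds, as deviations from the population mean of log2 CPM. LHX1 lies right of 0 for all 6 neuronal genes, and LHX5 reaches its lowest value, -0.66, with NTS; none of the 94 relations passed adjustment.

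Next, the slope of every tested element on LHX1 or LHX5 was fitted with population in the model. For LHX1, none of 9937 elements passed in edgeR's quasi-likelihood test (0%, smallest adjusted p = 0.352), and 764 had an unadjusted p under 0.05 (7.69%, 4.41% rising and 3.28% falling with it). DESeq2 called 39 for LHX1, 27 rising and 12 falling, with 861 at an unadjusted p under 0.05, and limma-voom called 0, with 781. For LHX5, edgeR called 0 of 9937 (0%, smallest adjusted p = 0.461), with 474 at an unadjusted p under 0.05 (4.77%, 2.74% rising and 2.03% falling). DESeq2 called 8 for LHX5, 6 rising and 2 falling, with 519 at an unadjusted p under 0.05, and limma-voom called 0, with 445. The calls therefore depended on the tool for both genes.

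Likeness over birds was described, with no test, among 906 named elements with a mean of at least 20 counts, the other gene of the pair included. Elements were picked for the most extreme r in these same birds, so shared high and low birds restate that choice. Values without some of the birds are no separate support either. The 8 most like LHX1 were TUBB4B (a beta-tubulin, r = 0.84), SV2C (a synaptic vesicle glycoprotein, 0.84), ATP6V0B (0.81), MDH2 (mitochondrial malate dehydrogenase, 0.81), MAP1LC3A (an autophagosome protein, 0.80), TMEM80 (0.79), THY1 (a neuronal surface glycoprotein, 0.76) and ATP6V0C (0.76). ATP6V0B and ATP6V0C encode membrane subunits of the vacuolar proton pump, which acidifies synaptic vesicles and lysosomes. All 8 were lowest in resident 3 and highest in resident 2 among residents, as was LHX1. TUBB4B, for example, had 233.8, 372, 180.4, 289.5, 228, 272 and 251 CPM in residents 1 to 7, and 276, 238, 237, 223, 204 and 198 CPM in migrants 1 to 6. Its r with LHX1 was 0.87 in residents and 0.88 in migrants. Without residents 2 and 3, left out after the values were seen, r of the 8 ranged from 0.59 (TMEM80) to 0.82 (MAP1LC3A), and without resident 4 and migrant 1 from 0.73 (THY1) to 0.87 (SV2C).

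The 4 elements least like LHX1 were DRP2 (a relative of dystrophin, r = -0.89), VCAM1 (an adhesion molecule of vessel walls, -0.77), EDEM1 (a factor of protein degradation in the endoplasmic reticulum, -0.76) and SDCCAG8 (a centrosome protein, -0.74). DRP2 had 148, 123, 214, 171, 179, 140.0 and 172 CPM in residents 1 to 7, and 117, 154, 168, 171, 175 and 195 CPM in migrants 1 to 6. It was highest in resident 3 and in migrant 6, birds with little LHX1, and lowest in resident 2 and migrant 1. Its log2 fold change between the populations was 0.003.

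The 8 elements most like LHX5 were CARD9 (an adaptor of innate immune receptors, r = 0.79), GADD45B (a stress-induced gene, 0.77), FZD7 (a Wnt receptor, 0.77), CSRNP1 (a nuclear protein, 0.76), CSF1 (the growth factor of microglia and macrophages, 0.76), NDUFS1 (a subunit of respiratory complex I, 0.74), YIPF6 (a Golgi membrane protein, 0.68) and PDCL (a phosducin-like protein, 0.67). Of these 8, 6 were highest in resident 4 among residents, the resident with the most LHX5 and 1 of the birds far out on the first principal component. GADD45B had 34.2 CPM in resident 4, against 8.12 to 13.4 CPM in the other residents. Without resident 4 and migrant 1, left out after the values were seen, r of the 8 ranged from 0.59 (YIPF6) to 0.91 (FZD7), with 0.77 for GADD45B. The 4 least like LHX5 were TMEM170B (r = -0.75), ZNF365 (-0.72), C6H10orf88 (-0.71) and PTPRO (a receptor tyrosine phosphatase of neurons, -0.69). FZD7, C6H10orf88 and PTPRO, and SV2C among those like LHX1, were in the table for a small p between the populations.

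LHX1 and LHX5 were themselves not each other's closest match. An r above their own 0.57 was found with LHX1 for 4.50% of elements and with LHX5 for 2.75%. CARD9 had an r of 0.32 with LHX1, and TUBB4B an r of 0.34 with LHX5.

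**Figure D5:**
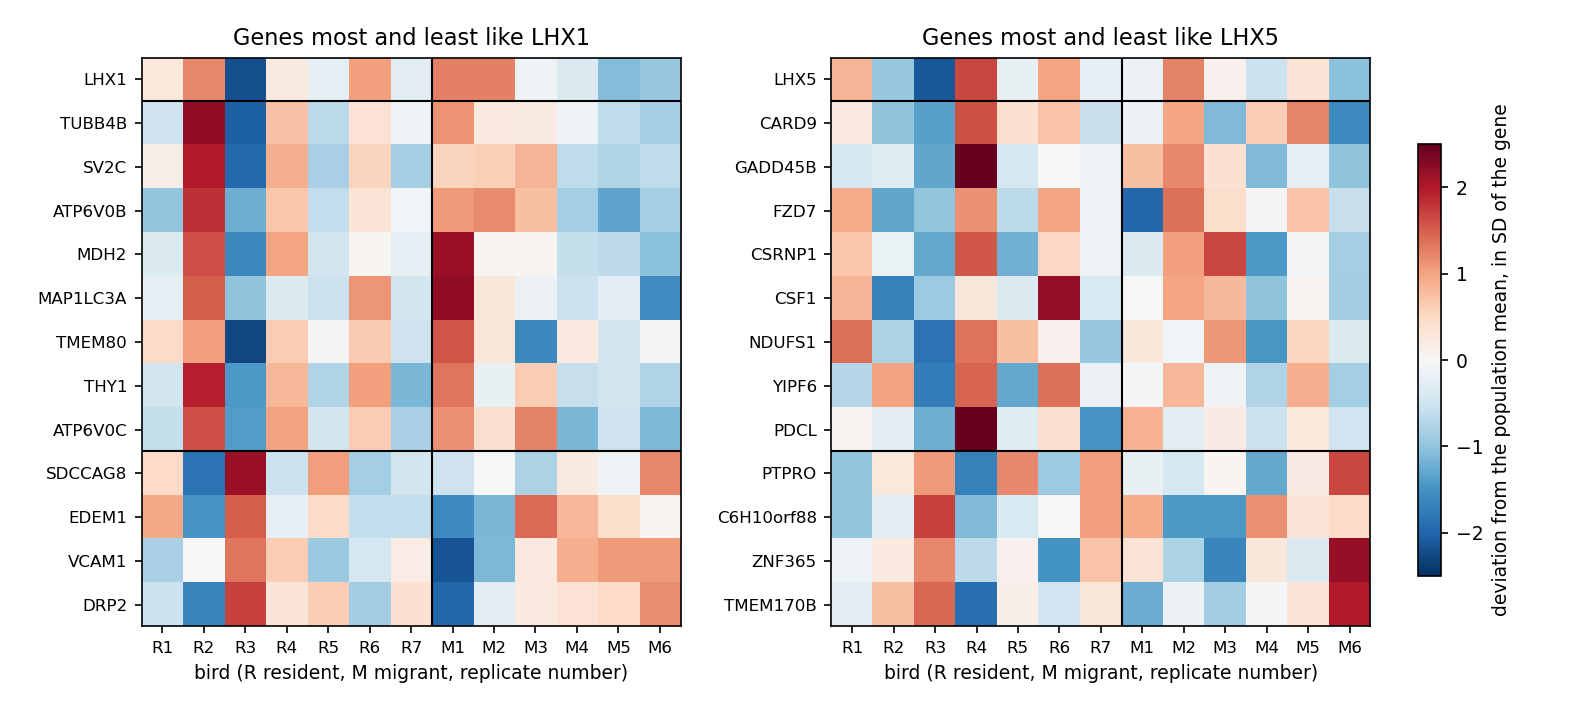
Deviation from the population mean of log2 CPM, in SD of each gene, for LHX1 (left) and LHX5 (right) in the top row, then the 8 named genes with the highest and the 4 with the lowest r, with residents (R) left of migrants (M). The 8 genes just below LHX1 are red in resident 2 and blue in resident 3, and 6 of 8 below LHX5 are at their highest among residents in resident 4.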

How the data were processed

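Hypothalamic punches of 7 resident and 6 migrant males were sequenced, 1 library per bird, from a stranded mRNA kit. The authors deposited raw counts of uniquely aligned read pairs per annotated element, named by the homologous zebra finch protein. Per the submitters' processing notes and the study's methods, Trimmomatic 0.33 trimmed the reads, STAR 2.5.3a aligned them to a junco draft genome and featureCounts (Subread 2.0.0 in the notes, which also name GSNAP) counted them. Whether the counting used strand was not stated, so overlapping antisense transcripts cannot be told apart, and reads shared between the related LHX1 and LHX5 genes were not examined. Symbols came from a shortened copy of the study's supplementary table, which names 1223 elements, 175 of them for a small p. Fold changes and p-values of that table were not used. Members, gene lists and filters were chosen with earlier results of these data known.

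Elements reaching 5 counts in 6 or more libraries were tested with edgeR 4.0.16 (TMM factors, quasi-likelihood test, Benjamini-Hochberg threshold 0.05) in R 4.3.3. Each standard error is the absolute log2 fold change over the root of its F statistic. Log2 CPM used a prior count of 2. Correlations used all pairings (n = 6 or 7) or 100000 draws within populations, two-sided. DESeq2 1.42.0, limma-voom (limma 3.58.1), other normalizations, scales and filters, a replicate block, HBAA or the first principal component as a covariate, and leaving out birds were alternatives. Named genes are LHX1, LHX5, the listed genes and, for each of the pair, the 8 named elements of highest and the 4 of lowest r. Genes chosen by p were left out of counts over lists, and some listed genes are not reported here. Counting intervals (95%, exact Poisson) cover counting error only. The fits were tested on simulated data. Same-population libraries differed by more than sampling noise as a mean over elements (mean chi-square per element at least 7.21). Every replicate is a different bird.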

Additional observations from a re-analysis of the deposited data

Results flagged for a closer look

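Of 100 groups of birds examined, 10 had 1 bird far from the others, where chance flags about 1 in 20 groups, or 5 here. The value given is the gap from that bird to its nearest neighbour divided by the range of the group. The groups shared the same birds and were not independent, so 10 against 5 does not show an excess over chance. The ratio of LHX1 to LHX5 counts was 1.91 in resident 2, with the next resident at 1.18 (0.679). Resident 2 was also far above the other residents for the neuronal genes STMN2 (0.709) and UCHL1 (0.616). Resident 4 stood apart for LMO1, with 138 CPM against 83.8 CPM in the next resident (0.611), for HBAD (0.654) and on the first principal component (0.629). Migrant 1 stood apart on the first principal component (0.884). The other flags were ZIC1 in migrant 3, with 63.8 CPM against 29.7 CPM in the next migrant (0.830), LEPR in migrant 6 (0.731) and OMG in resident 6 (0.808). On the CPM scale of the gene flags, LHX1 and LHX5 themselves had no such bird in either population. Residents 2 and 3, the latter the lowest resident for both, still weighed on their correlation on log2 CPM. Among all residents r was 0.60. It was -0.06 without resident 3, 0.91 without resident 2 and 0.64 without both.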

How the results depend on the processing

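The log2 fold changes of LHX1 and LHX5 stayed positive in all 22 alternatives, from 0.47 to 0.64 for LHX1 and from 0.47 to 0.68 for LHX5. Each moved by less than the spread between birds, a wide limit beside these values. Both genes were chosen by the p of this comparison in the same birds, so the steady sign restates that choice and is no separate support. Leaving out 1 bird gave 0.47 to 0.64 for LHX1 and 0.47 to 0.68 for LHX5. edgeR called 0 elements without any one bird, in the population comparison and on either slope. DESeq2 called 3 between populations, 8 on LHX5 and 39 on LHX1, and the cause was not tested. The correlation of LHX1 with LHX5 over all birds ranged from 0.26 (without resident 3) to 0.75 when 1 bird was left out, and passed an unadjusted 0.05 without migrant 1 (r = 0.64), migrant 5 (0.65), resident 2 (0.75) or resident 4 (0.63), and without resident 4 and migrant 1 together (0.70). Among residents it ranged from -0.0642, a reversal without resident 3, to 0.91 without resident 2, and among migrants from 0.16 to 0.79. The 94 relations gave 0 calls in every alternative but 1. With the first principal component removed, the relation of LHX1 with the total count reached r = 0.83 (adjusted p = 0.0202, permutation test), and that was the 1 call; over its alternatives the adjusted p ran to 0.715. Likeness of the 24 named elements, tried without resident 4 and migrant 1 and without residents 2 and 3 after seeing the data, kept its sign, and SDCCAG8 moved most, to -0.45 with LHX1 without residents 2 and 3. The 24 were picked by r over the same birds, so the kept sign restates that choice. Residents and migrants of the same replicate number had deviations that correlated at -0.18 to 0.06. Birds of different numbers were not set beside them, so a pairing by replicate number was not tested. With the replicate block the log2 fold change was 0.56 for LHX1 and 0.57 for LHX5, and 0 elements were called between populations and on either slope. With 52 to 164 counts of LHX1 and 54 to 139 of LHX5 per bird, counting error alone gave a coefficient of variation of 9.04% to 12.0%.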
